A study of Phyllotreta striolata with 15 samples.

Results

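The comparison of larvae with eggs of the striped flea beetle, Phyllotreta striolata, rested on 6 of the 15 libraries of an RNA-seq study of its life cycle. They were chosen by the stage in the sample titles, as the 3 larval libraries against the 3 egg libraries. The other libraries came from pupae, male adults and female adults, with 3 each, and entered here as a background for the same genes. Every library was made from whole bodies, extracted with TRIzol and prepared with an Illumina TruSeq RNA kit. The labels give no age of the eggs, no larval instar, no strain, no rearing plant and no number of animals in a pool. The study set out to find genes expressed in a stage- or sex-specific way.

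The striped flea beetle is a leaf beetle and a pest of crucifer crops. Its eggs are laid in the soil, its larvae feed on crucifer roots, and its adults chew holes in the leaves. In insects, the early embryo runs largely on RNA that the mother placed in the egg, and transcription from the embryo's own genome takes over as development goes on. A larva is a feeding and growing animal with a working gut, muscles and a cuticle that is replaced at each moult. In this beetle, the food also brings in glucosinolates, the defence compounds of crucifers.

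The egg libraries held 23327854, 23135342 and 26690102 counts, and the larval libraries held 16509113, 29806307 and 20292576. Larva replicate 1 was thus the least deeply sequenced of the 6, and it also stood apart from the other larval libraries. Across the 11440 genes tested, its counts had a Spearman correlation of 0.85 with larva replicate 2 and 0.82 with larva replicate 3, whereas larva replicates 2 and 3 had one of 0.96 and the egg libraries ones of 0.94 to 0.97 with each other. Between eggs and larvae the correlations ran from 0.46 to 0.64. The main results are therefore given with all libraries and again without larva replicate 1. The column names give eggs a different prefix from larvae, and no source says what the prefix stands for. Stage and prefix thus cannot be told apart. Larvae share their prefix with adults of both sexes, and pupae have another. Comparisons of larval genes across those groups carry the same limit. The replicates are called biological, but no label ties them to separate collections. The p-values are thus set against the variation among these libraries, which may be technical. In RNA from whole bodies, fewer cells of a type and less RNA per cell cannot be told apart. The tables do not pair gene identifiers with names or products, so genes are described by their levels, and 4 are named by identifier.

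Most measured genes differed between the stages. Of 11440 genes tested, 6773 (59.2%) differed at least 2-fold with an adjusted p under 0.05 by edgeR's quasi-likelihood test. Of these, 3651 (31.9% of genes tested) were higher in larvae and 3122 (27.3%) were higher in eggs. Without larva replicate 1, 6373 of 11508 genes (55.4%) passed, with 2968 (25.8%) on the larval side and 3405 (29.6%) on the egg side. The direction with more genes therefore changed with 1 library. It also changed with the scaling. Larvae took 53.9% of the calls with TMM scaling, which sets libraries level on their shared genes, 60.7% with DESeq2's size factors and 41.2% with total counts alone. The median log2 difference over all genes tested was 0.02 with TMM, 0.29 with DESeq2's size factors and -0.49 with total counts. When larva replicate 1 was left out it was -0.30 with TMM, and larvae took 46.6% of the calls, or 36.3% with total counts.

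**Figure D1:**
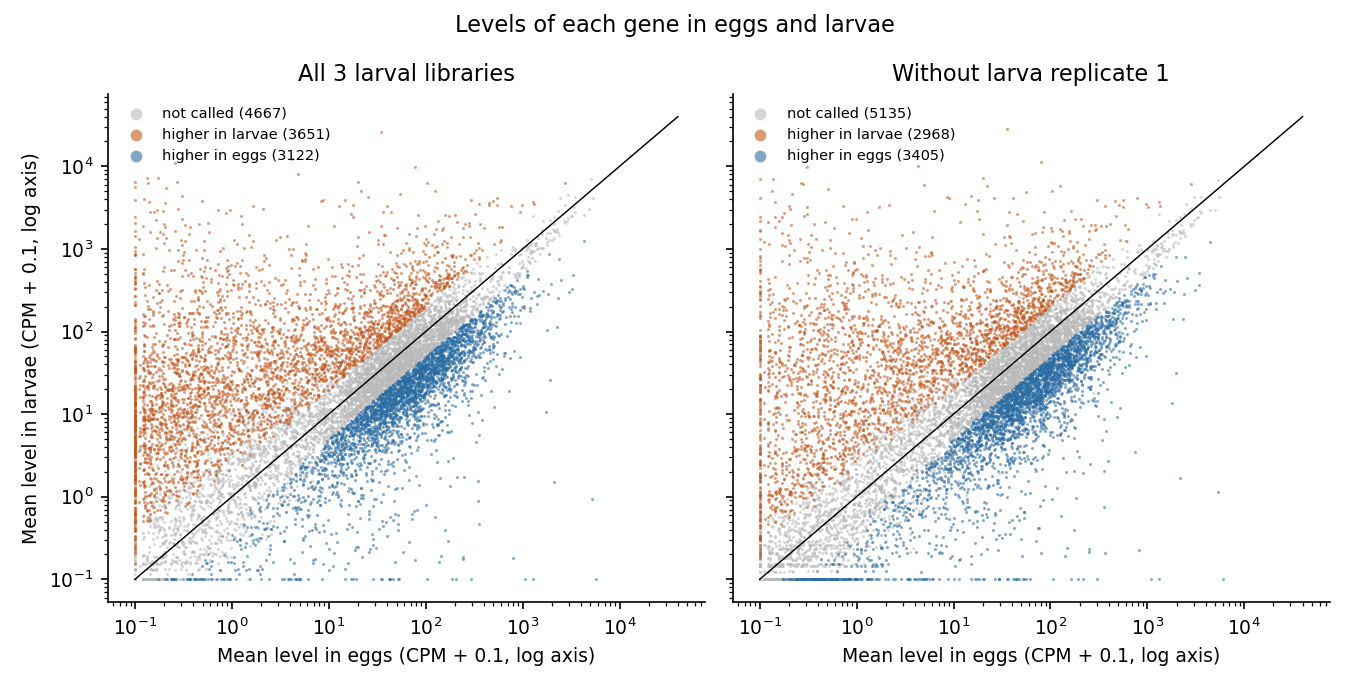
Mean level of each tested gene in eggs (horizontal axis) and larvae (vertical axis), in CPM (counts per 1000000) plus 0.1, both on log axes, with all libraries (left) and without larva replicate 1 (right). Orange points are genes called higher in larvae, blue points genes called higher in eggs, grey points genes not called, and the line marks equal levels. The orange cloud spreads far from the line down to eggs with no counts, while most blue points run close to the line.

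The 2 directions differed much more in the size of change than in the number of genes. Genes higher in larvae had a median log2 difference of 4.20, with quartiles of 2.38 and 6.80. Genes higher in eggs had a median of -1.87, with quartiles of -2.56 and -1.43. Genes with no count on a side entered these medians at a lower bound, set against 3 counts summed over that side's libraries. Of the genes called higher in larvae, 2387 (20.9% of genes tested, 65.4% of those called) differed at least 8-fold. Of the genes called higher in eggs, 520 did so (4.55% of genes tested, 16.7% of those called). At 64-fold or more there were 1175 genes higher in larvae and 100 higher in eggs. In the range from 2-fold to 4-fold the order was the opposite, with 678 genes higher in larvae and 1727 higher in eggs.

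This difference between the directions was present without larva replicate 1, though the larval side became smaller. The median log2 difference was then 3.59 for genes higher in larvae and -1.93 for genes higher in eggs. At least 8-fold differences were found for 1766 genes higher in larvae (15.3% of genes tested, 59.5% of those called) and 608 higher in eggs (5.28% of genes tested, 17.9% of those called). At 64-fold or more, 784 genes were higher in larvae and 103 were higher in eggs. With total-count scaling in addition, the numbers at 8-fold or more were 1539 and 906. Of the 2387 genes at least 8-fold higher in larvae with all libraries, 1715 were also called at least 8-fold higher without larva replicate 1, 90 were called higher in larvae below 8-fold, and 582 were not called higher in larvae. Of the 520 genes at least 8-fold higher in eggs, 466 were at least 8-fold higher in both fits.

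The larval libraries gave unlike sizes when each was set against the mean of the eggs. Over the genes called higher in larvae with all libraries, the median log2 difference was 4.12 for larva replicate 1, 2.66 for larva replicate 2 and 2.60 for larva replicate 3, with 0.1 CPM added to each level. Over the genes called higher in eggs, the same medians were -1.91, -1.94 and -1.91. For the genes called higher in larvae without larva replicate 1, larva replicates 2 and 3 gave 3.30 and 3.26. Thus the replicates lay far apart for the larval genes of the full comparison and close together for the egg genes. That larval set includes 739 genes not called higher in larvae without larva replicate 1, so the gap follows at least in part from the choice of genes. For the 2912 genes called higher in larvae in both fits, the median levels were 60.9, 59.6 and 51.1 CPM in larva replicates 1, 2 and 3.

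**Figure D2:**
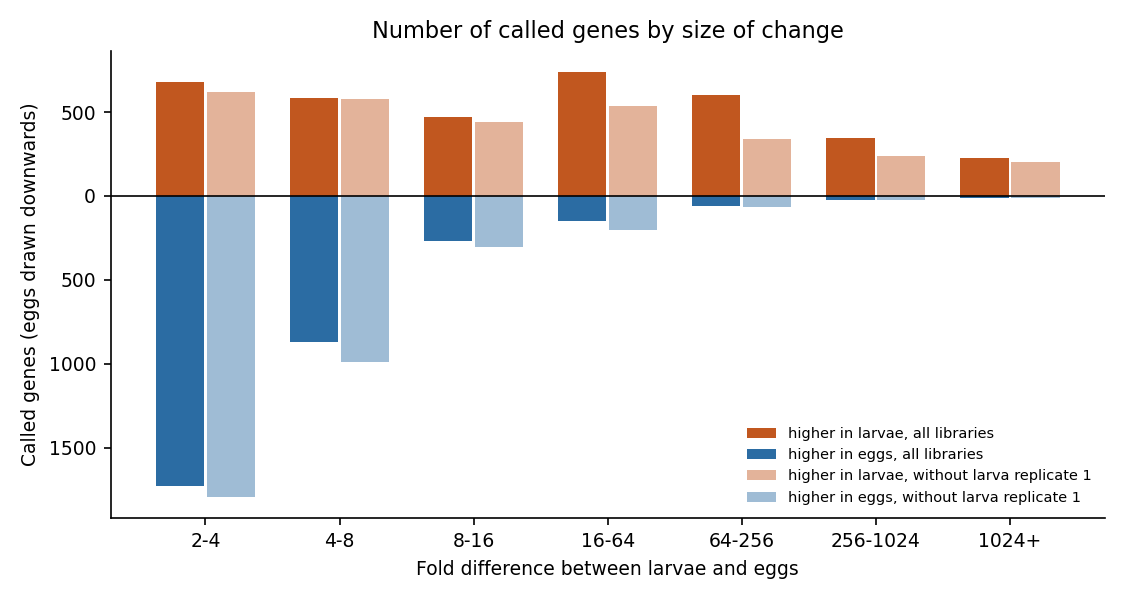
Number of called genes (vertical axis, genes higher in eggs drawn downwards) by fold difference (horizontal axis), in orange for larvae and blue for eggs, with dark bars for all libraries and pale bars for the comparison without larva replicate 1. In the range from 2-fold to 4-fold, 678 genes were higher in larvae and 1727 in eggs with all libraries, whereas in the last bin there were 225 and 15. Called genes whose lower bound fell under 2-fold, at most 14 in either direction and fit, are not drawn.

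Genes higher in larvae made up most of the larval libraries. They took 65.7% of the counts of larva replicate 1, 63.3% of larva replicate 2 and 60.2% of larva replicate 3, or 63.1% ± 2.76 (SD, n = 3). In eggs the same genes took 8.31% ± 1.27 (SD, n = 3). Genes higher in eggs took 46.4% ± 1.89 (SD, n = 3) of the egg counts and 8.21% ± 1.34 (SD, n = 3) of the larval counts. Genes not called took 45.3% ± 0.64 of the egg counts and 28.7% ± 1.45 of the larval counts (SD, n = 3 each). The gene sets were chosen on these libraries, so the shares describe how abundant they were and support no difference of their own. In the fit without larva replicate 1, the genes higher in larvae took 61.3% ± 2.01 (SD, n = 2) of the larval counts and 7.92% ± 1.25 (SD, n = 3) of the egg counts, and the genes higher in eggs took 47.0% ± 2.05 (SD, n = 3) of the egg counts and 8.90% ± 1.25 (SD, n = 2) of the larval counts.

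**Figure D3:**
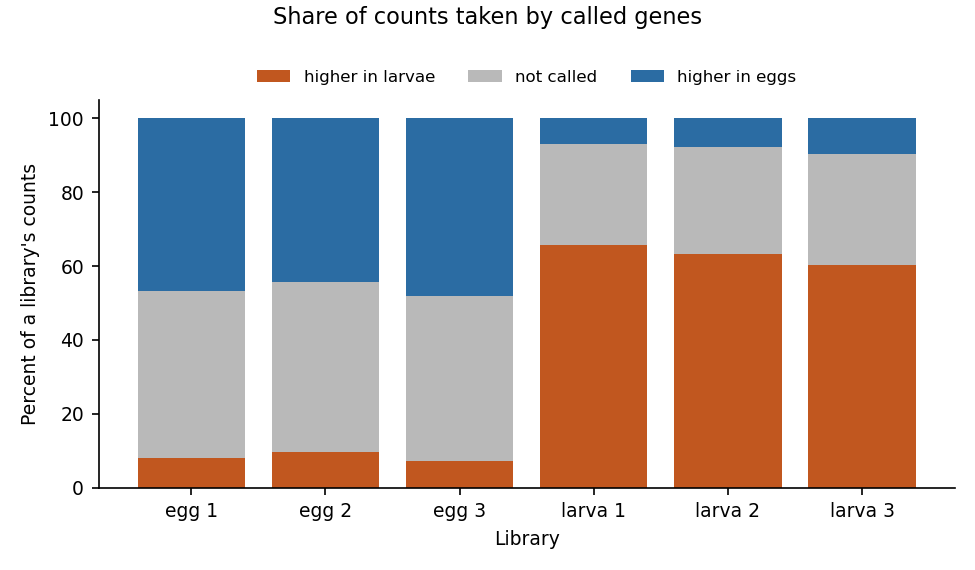
Percent of the counts of each egg and larval library (vertical axis, stacked to 100) held by genes called higher in larvae (orange), genes not called (grey) and genes called higher in eggs (blue), with all libraries in the fit. Genes higher in larvae hold 60.2% to 65.7% of the larval libraries and 7.14% to 9.65% of the egg libraries.

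Larval libraries put more of their counts into few genes, and at the same time held more genes at a low level. The number of genes that together reached 50% of the counts was 491, 670 and 509 in the eggs and 269, 269 and 335 in the larvae. The ranges of the groups did not overlap, with or without larva replicate 1. The 100 most abundant genes of a library took 24.6% ± 2.55 of the egg counts and 33.0% ± 0.98 of the larval counts (SD, n = 3 each), and the 10 most abundant took 6.20% ± 1.38 and 9.73% ± 0.84. The larval values were 32.5% ± 0.87 and 9.31% ± 0.61 (SD, n = 2) without larva replicate 1. In the authors' mean TPM, which is divided by transcript length, the top 100 genes took 39.9% in each stage. Genes at 1 CPM or more of the library's total numbered 8512, 8992 and 8307 in eggs and 10101, 9215 and 9510 in larvae, with larva replicate 1 the highest.

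The imbalance between the directions was greatest among the most abundant genes. The level of a gene is given from here on in CPM (counts per 1000000) scaled by TMM, which allows a gene to be compared across libraries but is not divided by gene length. Among the 271 genes with a mean of 1000 CPM or more in at least 1 of the stages, 158 (58.3%) were higher in larvae and 37 (13.7%) were higher in eggs. Between 100 and 1000 CPM the directions were nearly even, with 1005 and 1048 of 2886 genes. Between 10 and 100 CPM they were 1602 and 1709 of 5537 genes. Between 1 and 10 CPM, 783 (39.7%) of 1970 genes were higher in larvae and 273 (13.9%) were higher in eggs. With larva replicate 1 left out, the share higher in larvae in this low range was 29.4% against 20.5% higher in eggs, while among genes of 1000 CPM or more it was 55.4% against 14.9%.

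What an abundant gene did in the other stage also differed. In larvae, 217 genes had a mean of 1000 CPM or more, of which 158 were called higher in larvae and 73 had a mean under 10 CPM in eggs. In eggs, 114 genes reached this level, of which 37 were called higher in eggs, 74 were not called and 5 had a mean under 10 CPM in larvae. The numbers without larva replicate 1 were 205, 149 and 67 for larvae and 120, 40 and 5 for eggs, with 76 of the egg genes not called. Genes abundant in larvae thus included many that were low in eggs, whereas few genes abundant in eggs were low in larvae. Each set was chosen by its level in its own stage, which favours a call towards that stage on both sides. The gap between 217 and 114 genes depends in part on the scaling, since TMM raised larval levels and lowered egg levels. By library totals, 164, 165 and 151 genes lay over 1000 CPM in larva replicates 1 to 3. In egg replicates 1 to 3 there were 144, 122 and 141.

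The 5 genes with the most counts among those higher in larvae show this pattern. The leading gene had 22918, 26239 and 29906 CPM in larva replicates 1 to 3 and 23.7, 72.1 and 7.42 CPM in egg replicates 1 to 3. Its log2 difference was 9.58 ± 1.12 (SE, edgeR adjusted p = 1.61e-05), and pupae still held 1173 to 3069 CPM while adults held at most 4.51 CPM. The next 3 genes had under 6 CPM in each egg library and between 2268 and 20641 CPM in the larval libraries. In all 3, larva replicate 1 was the highest larval library and larva replicate 3 the lowest. The fifth gene had 7380, 10279 and 11713 CPM in larvae and 2.34, 224 and 8.62 CPM in eggs, so that egg replicate 2 stood far above the other egg libraries. It was also high in pupae (11275 to 16452 CPM) and in male adults (8995 to 14016 CPM). All 5 were called without larva replicate 1 as well, with log2 differences of 7.13 to 15.46.

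Among genes higher in eggs, the 5 with the most counts were of a different kind. The first 2 were nearly absent from larvae. The other 3 were abundant in both stages and differed by a few fold. They had means of 4300, 3317 and 3265 CPM in eggs and 1234, 484 and 325 CPM in larvae, with log2 differences of -1.80 ± 0.29, -2.78 ± 0.24 and -3.33 ± 0.30 (SE, n = 3 each, edgeR adjusted p at most 0.000163). Their groups did not overlap.

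**Figure D4:**
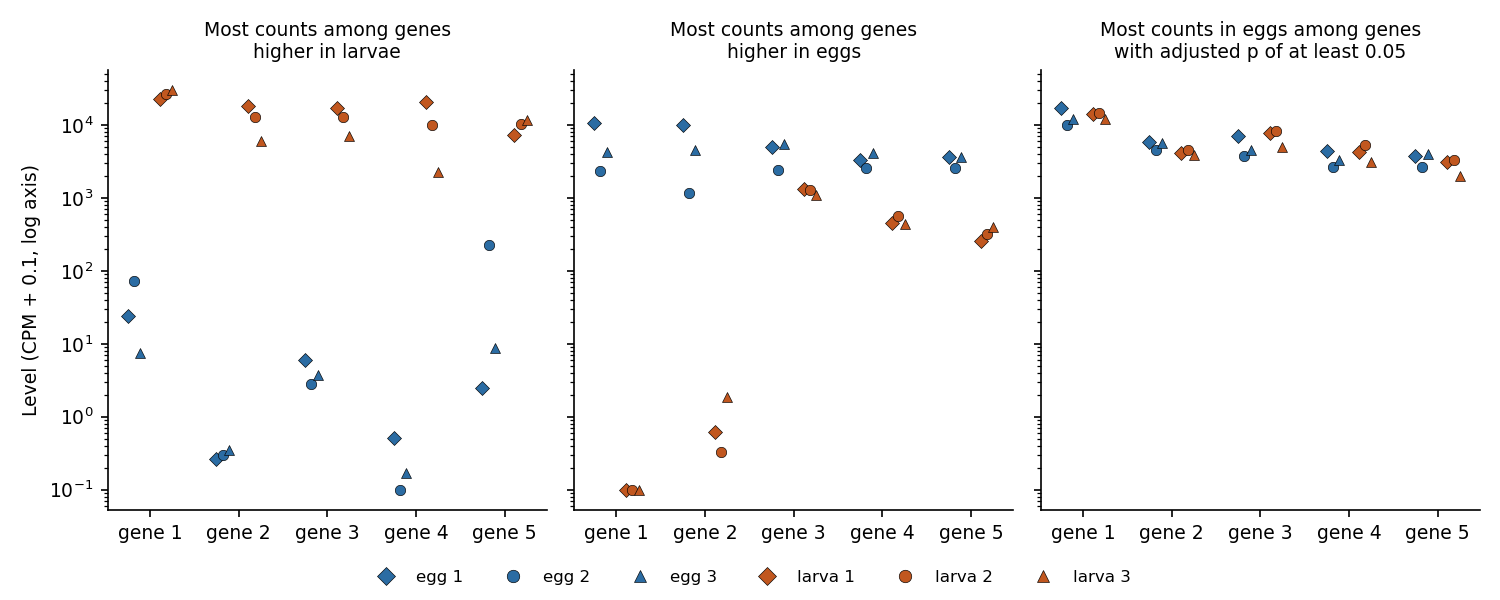
Level in each egg (blue) and larval (orange) library, in CPM plus 0.1 on a log axis, of the 5 genes with the most counts among those called higher in larvae (left), higher in eggs (middle) and, among genes with an adjusted p of at least 0.05, in eggs (right). Diamonds, circles and triangles are replicates 1, 2 and 3. Larval genes lie at or under 224 CPM in every egg library, 3 of the 5 egg genes stay at 254 CPM or more in larvae, and the stages overlap in 4 of the 5 genes on the right.

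Genes on in larvae and off in eggs outnumbered the reverse. A gene was taken as on in a stage at 1 CPM or more in each library and as off below 1 CPM in each library. There were 810 genes on in larvae and off in eggs, of which 802 were called higher in larvae, and 148 genes on in eggs and off in larvae, of which 142 were called higher in eggs. These were 841 and 228 genes without larva replicate 1. The 810 genes took 17.2% ± 3.63 (SD, n = 3) of the larval counts, with 229 of them at 100 CPM or more and 49 at 1000 CPM or more. The 148 genes took 1.47% ± 0.64 (SD, n = 3) of the egg counts, with 16 at 100 CPM or more and 3 at 1000 CPM or more. The shares were 15.1% ± 1.12 (SD, n = 2) and 1.60% ± 0.64 (SD, n = 3) for the sets found without larva replicate 1.

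Most genes on in larvae and off in eggs were on in another group too. Of the 810, 617 (76.2%) were on in male adults, 591 (73.0%) in female adults, 468 (57.8%) in pupae and 95 in no other group. Over all genes tested, 89.8% were on in male adults, 80.7% in female adults and 88.2% in pupae. Of the 148 genes on in eggs and off in larvae, 67 (45.3%) were on in pupae, 59 (39.9%) in female adults, 31 (20.9%) in male adults and 37 in no other group. Of the 228 such genes found without larva replicate 1, 127 (55.7%) were on in pupae, 98 (43.0%) in female adults, 92 (40.4%) in male adults and 44 in no other group.

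Some genes had no count at all on a side. Among genes called higher in larvae, 313 had no count in any egg library, with a median of 6.90 CPM in larvae, and 8 of them reached 1000 CPM. In 147 of the 313, larva replicate 1 was at least 8 times the higher of the other larval libraries. Among genes called higher in eggs, 72 had no count in any larval library, with a median of 1.22 CPM, and 3 of them reached 1000 CPM. With larva replicate 1 left out the numbers were 185 and 198, so the order turned, but the 198 genes had a median of 0.52 CPM in eggs and the 185 a median of 6.33 CPM in larvae. At 100 CPM or more there were 32 and 8 genes.

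The largest rise by the bound against no counts was that of CAG9863956.1. It had 5366, 7811 and 6064 CPM in larva replicates 1, 2 and 3, or 6414 ± 1259 (SD, n = 3), and no count in any egg library. The 3 larval libraries were close to each other. It was at least 176756-fold higher in larvae, or at least 189123-fold without larva replicate 1, taking 3 counts over the egg libraries as the floor (edgeR adjusted p = 1.84e-06). The level was 4.16 to 10.3 CPM in pupae and at most 1.16 CPM in any adult library. The authors' table gave it a mean of 9642 TPM in larvae and 0 in eggs.

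CAG9853988.1 came next by its fitted difference. It had 11620, 7807 and 2238 CPM in larva replicates 1, 2 and 3, and 3 counts over the egg libraries, all in egg replicate 2. The larval libraries spread widely, with larva replicate 1 at the top and larva replicate 3 at the bottom. The ratio of means was 199015, with a 95% counting interval of 68099 to 965041, and 136247 (46621 to 660674) without larva replicate 1. The fitted log2 difference was 17.43 ± 1.11 (SE, edgeR adjusted p = 4.36e-07). It was at 0.43 to 0.57 CPM in pupae but at 72.9 to 128 CPM in male adults and 55.0 to 107 CPM in female adults.

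CAG9858241.1 showed the largest fall from eggs to larvae. It had 10730, 2307 and 4317 CPM in egg replicates 1, 2 and 3, or 5785 ± 4399 (SD, n = 3), and no count in any larval library. The egg libraries differed widely, and egg replicate 1 was the highest. It was at least 100848-fold lower in larvae, or at least 80153-fold without larva replicate 1 (edgeR adjusted p = 0.000626). Female adults had 772 to 2534 CPM, whereas male adults had no count and pupae at most 2.78 CPM.

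CAG9857233.1 had 1582, 639 and 1578 CPM in egg replicates 1, 2 and 3 and no count in any larval library. It was at least 22072-fold lower in larvae, or at least 17477-fold without larva replicate 1 (edgeR adjusted p = 8.72e-06). Unlike the gene before it, it was also nearly silent in female adults, at no more than 0.039 CPM, and in male adults and pupae it stayed at or under 0.14 CPM. The authors placed it on their list of egg genes.

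The smallest adjusted p among genes higher in larvae belonged to a gene with 906, 982 and 1082 CPM in larva replicates 1 to 3 and 3.58 to 5.21 CPM in eggs, a log2 difference of 7.89 ± 0.24 (SE, edgeR adjusted p = 3.73e-09). Among genes higher in eggs it belonged to a gene with 168, 105 and 121 CPM in egg replicates 1 to 3 and 2.10 to 3.31 CPM in larvae, a log2 difference of -5.67 ± 0.30 (SE, edgeR adjusted p = 1.44e-07). In both genes the groups lay far apart.

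Several of the most abundant genes did not pass the test with TMM scaling and all libraries. The gene with the most counts in eggs had 16877, 10039 and 11932 CPM in egg replicates 1 to 3 and 14265, 14690 and 12143 CPM in larva replicates 1 to 3. The stages overlapped, and the log2 difference was 0.08 ± 0.24 (SE, edgeR adjusted p = 0.777), with a sign that turned under total-count scaling (-0.43, adjusted p = 0.0436). It was also at 7503 to 10597 CPM in every other library. Another, with 4554 to 5888 CPM in eggs and 3886 to 4475 CPM in larvae, had a log2 difference of -0.36 ± 0.19 (SE, edgeR adjusted p = 0.113). It passed an adjusted p of 0.05 with total-count scaling (-0.88, adjusted p = 0.000429) and without egg replicate 2 (-0.50, adjusted p = 0.0445), and over all alternatives the adjusted p ran up to 0.706. Its egg libraries all lay above its larval libraries, and the test does not show that the levels were equal.

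Larva replicate 1 held a set of transcripts that the other larval libraries nearly lacked. Of the 11440 genes tested, 918 were at 1 CPM or more in larva replicate 1 and at least 8 times the higher of the other larval libraries, and 14 were at least 8-fold below both. The 918 genes had a median of 26.0 CPM in larva replicate 1, 0 in larva replicates 2 and 3, and 0.10 to 0.21 CPM in eggs. In male adults their median was 22.9 to 46.6 CPM and in each pupal library at least 10.4 CPM, whereas in female adults it was at most 0.082 CPM. They took 2.96% of the counts of larva replicate 1, against 0.028% and 0.049% of larva replicates 2 and 3. The genes were chosen for this gap, so their low levels in larva replicates 2 and 3 are no finding of their own. A gene seen in larva replicate 1 alone could not pass the filter that chose the genes tested. A raised level in some other group is thus in part set by the choice of genes. Why larva replicate 1 differed was not tested.

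For genes well expressed in the other larval libraries, larva replicate 1 was close to them. Among 6762 genes at 10 CPM or more in larva replicates 2 and 3, its level was within 2-fold of larva replicate 2 for 93.3% and within 2-fold of larva replicate 3 for 80.3%. Larva replicates 2 and 3 were within 2-fold of each other for 86.7%. On these genes larva replicates 1 and 2 were the closest pair.

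The calls divide along the same line. Of the 3651 genes higher in larvae, 2912 were also called higher in larvae without larva replicate 1, with a median log2 difference of 3.79 with it and 3.64 without it. The remaining 739 (20.2%) were not, and in 584 of these larva replicate 1 was at least 8 times both other larval libraries. Among the 739, 688 were not called, although 51 of those still had an adjusted p under 0.05 with a difference in the same direction below 2-fold. The other 51 were called higher in eggs. Of the 3122 genes higher in eggs, 2977 were called in both fits and 145 in the full fit alone. A further 372 genes were called higher in eggs without larva replicate 1 that had not been called before. Another 50 genes were called higher in larvae without it alone.

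A gene that was lost has its values as an example. It had 854 CPM in larva replicate 1, 0.96 and 4.42 CPM in larva replicates 2 and 3, and 3.84 to 7.67 CPM in eggs. Its log2 difference was 5.67 ± 1.80 with all libraries (SE, edgeR adjusted p = 0.0151) and -1.08 ± 0.63 without larva replicate 1 (edgeR adjusted p = 0.154). It was at 818 to 2566 CPM in pupae, at 688 to 1173 CPM in male adults and at no more than 2.85 CPM in female adults.

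The 51 genes whose direction turned were low in eggs and in the other larval libraries. Their median was 48.8 CPM in larva replicate 1, 0 in larva replicates 2 and 3, and 0.17 to 0.29 CPM in eggs. In pupae it was 27.5 to 68.7 CPM and in male adults 46.4 to 98.9 CPM, and in female adults it was at most 0.082 CPM. Here too, a gene seen in larva replicate 1 alone could not pass the filter. When larva replicate 1 was left out, 46 of the 51 had a mean of at most 1 CPM in both stages. The example with the smallest adjusted p had 186 CPM in larva replicate 1, no count in larva replicates 2 and 3, and 0.10 to 0.25 CPM in eggs.

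The genes called in both fits had distinct profiles over the life cycle. The 2912 larval genes had medians of 1.04 to 2.21 CPM in the egg libraries and 51.1 to 60.9 CPM in the larval libraries. They were at 19.4 to 21.4 CPM in pupae, 30.3 to 44.2 CPM in male adults and 21.5 to 24.4 CPM in female adults. Larvae had the highest mean of the 5 groups for 52.4% of them, male adults for 25.9% and pupae for 19.2%. Over all genes tested, these shares were 17.7%, 21.3% and 22.9%. The genes were chosen for a lower level in eggs than in larvae, so their low egg level is no finding. The same choice favours larvae as the highest group and keeps eggs from being highest. Eggs were highest for 28.7% of all genes tested, so the shares are a description.

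The 2977 egg genes had medians of 55.8 to 70.6 CPM in the egg libraries and 14.4 to 16.2 CPM in the larval libraries. They were at 21.3 to 25.7 CPM in pupae, 17.4 to 17.8 CPM in male adults and 28.6 to 37.4 CPM in female adults. Eggs had the highest mean for 75.5% of them. Outside eggs, the highest mean was in female adults for 54.5% and in pupae for 34.3%. Over all genes tested, the highest mean outside eggs was in female adults for 23.6% and in pupae for 30.5%. The choice of genes on the egg and larval libraries bears on these shares, so they are a description. Of the 739 larval genes not called higher in larvae without larva replicate 1, 582 (78.8%) had their highest mean in male adults, against 21.3% of all genes tested. The filter and the choice of genes bear on this share too, so it is a description. Eggs could not be highest, and a gene seen in larva replicate 1 alone was dropped by the filter.

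**Figure D5:**
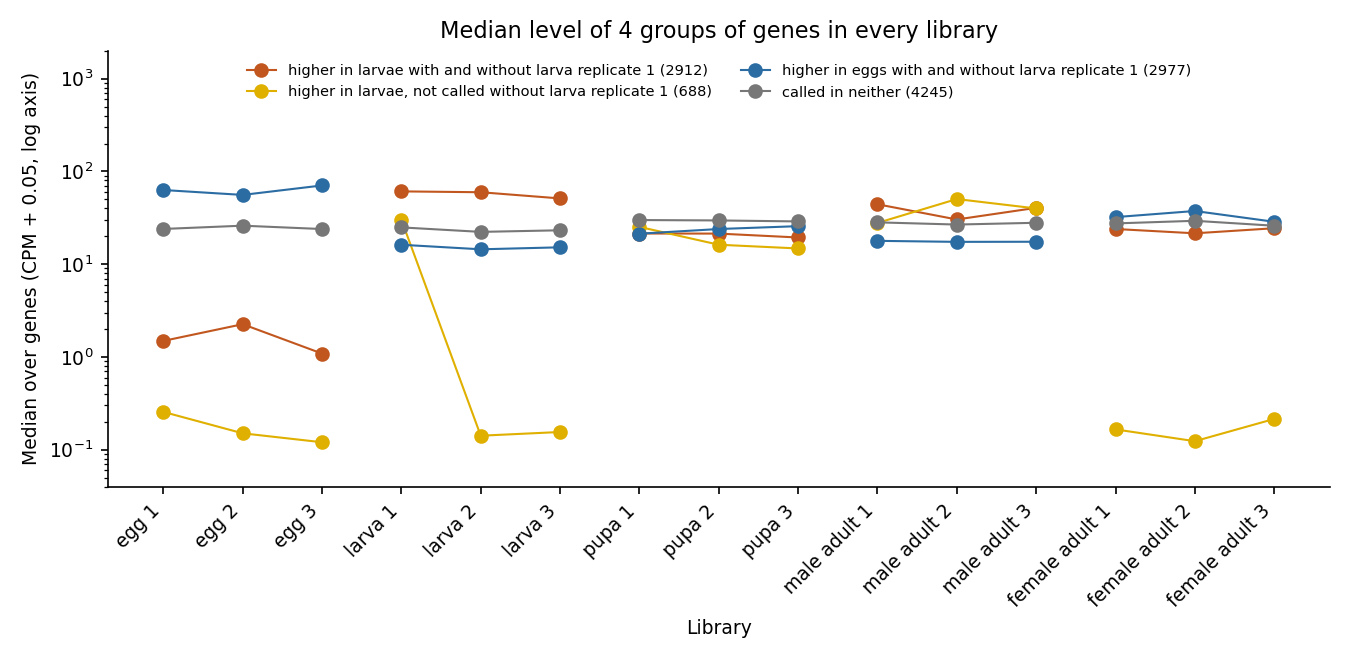
Median level over genes (vertical axis, CPM plus 0.05, log axis) in each of the 15 libraries (horizontal axis) for 2912 genes higher in larvae and 2977 higher in eggs with and without larva replicate 1, 688 genes called higher in larvae with all libraries and not called without larva replicate 1, and 4245 genes called in neither. The yellow line of the 688 genes lies at 30.1 CPM in larva replicate 1 and near 0.1 CPM in larva replicates 2 and 3, and is high again in pupae and male adults.

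The spread within a stage was wider for called larval genes than for called egg genes when all libraries were used. Among the 2354 larval genes called in both fits with a larval mean of 10 CPM or more, the median ratio of the highest to the lowest larval library was 2.01, and 16.5% spread over 4-fold or more. Between larva replicates 2 and 3 the median ratio was 1.62, and 8.71% spread over 4-fold or more, a range that is narrower in part because it spans fewer libraries. Among the 2696 corresponding egg genes the median ratio over the egg libraries was 1.59, and 5.19% spread over 4-fold or more. No wider larval spread was seen when uncalled genes were included. Over 7992 genes averaging 10 CPM or more over both stages, the median SD-to-mean ratio was 25.7% in eggs and 24.9% in larvae.

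The authors' stage lists were chosen on these same libraries, so their counts are not independent evidence of a direction. Of 222 larval genes of the list that were tested, 221 were called higher in larvae, with a median log2 difference of 9.46. Leaving larva replicate 1 out gave 223 of 224 genes with a median of 9.30. They took 17.7% ± 1.83 of the larval counts and 0.055% ± 0.036 of the egg counts (SD, n = 3 each), or 16.6% ± 0.62 (SD, n = 2) of the larval counts without larva replicate 1. Of 156 listed egg genes tested, 151 were called higher in eggs with a median of -4.25, and they took 5.79% ± 0.74 of the egg counts and 0.35% ± 0.068 of the larval counts (SD, n = 3 each). Leaving larva replicate 1 out gave 152 of 159. By number, 3256 of the 3651 genes higher in larvae and 2828 of the 3122 higher in eggs were on no list. The lists hold 1129 genes in all, against 11862 genes in the counts. Most genes, called or not, were therefore on no list. Among those that differed at least 8-fold, 2047 of 2387 and 321 of 520 were on no list.

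Of the lists of the other groups, that of male adults was the one whose calls moved by a large amount when larva replicate 1 was left out. Of 169 listed genes of male adults that were tested, 55 (32.5%) were called higher in larvae than in eggs and 10 lower, against 31.9% and 27.3% of all genes tested. The corresponding numbers without larva replicate 1 were 25 and 16 of 174. Of 480 pupal genes, 115 (24.0%) had a call towards larvae and 103 (21.5%) towards eggs, or 114 and 96 without larva replicate 1. Of 86 genes of female adults, 4 had a call towards larvae and 30 towards eggs, or 4 and 31 of 87.

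The authors' mean TPM is divided by transcript length and allows genes to be ranked against each other. By this measure the stages differed in the share taken by the top 10 genes, but not in the share taken by the top 100. The 10 genes with the highest TPM in larvae took 11.8% of the larval TPM. Of these, 9 were called higher in larvae and 8 were on the authors' larval list, and their median was 11135 TPM in larvae and 0.29 TPM in eggs. The 10 genes with the highest TPM in eggs took 6.86% of the egg TPM. Of these, 4 were called higher in eggs and 6 were not called, and their median was 6034 TPM in eggs and 2562 TPM in larvae. A single gene was in both sets, ranking first in eggs at 12801 TPM and eighth in larvae at 8331 TPM. The 100 genes with the highest TPM took 39.9% of the TPM in each stage. The larger larval share of the top 100 by counts was thus not seen by TPM. Among the top 100, 64 larval genes were called higher in larvae and 23 egg genes were called higher in eggs, and 37 genes were shared. These calls were the same in number without larva replicate 1, for the top 10 and the top 100. Over all genes tested, 31.9% had a call towards larvae and 27.3% a call towards eggs. The 64 of the top 100 larval genes thus lay above the share over all genes, and the 23 of the top 100 egg genes did not. The top genes were chosen by their level in these same libraries, which favours a call towards their stage. The comparison with all genes is therefore a description. The 4 of 10 egg genes are too few to set against such a share.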

How the data were processed

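Per the submitters' processing notes, the reads were handled with fastp, HISAT2 and featureCounts. The sources used here do not give versions, settings, strandedness or genome build. Deposited by the authors were raw read counts for 11862 genes in 15 libraries, TPM averaged over each group (so without a spread), and 5 lists of 1129 genes in all, without numbers. The library names in the column headers tied each count column to its sample, leaving 0 unmatched.

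Counts were tested with edgeR 4.0.16 in R 4.3.3: filterByExpr, TMM scaling and a robust quasi-likelihood fit of 5 groups over all libraries, which then share one estimate of the spread. Calls needed at least a 2-fold difference and an adjusted p under 0.05 (Benjamini-Hochberg, all tested genes). DESeq2 1.42.0 was an alternative. The filter dropped 422 genes. The test was checked on simulated data with 200 changed genes, and a gene that was not called may still differ. The depth limits the precision of low levels, and counting intervals cover counting error only.

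Described genes were those with the largest changes (at least 10 CPM on the higher side, no overlap between the stages), the most counts in each direction or with an adjusted p of at least 0.05, the smallest adjusted p, and those lost or turned without larva replicate 1. At most 2 identifiers in each direction are printed. The members and lists were chosen with earlier results of these data known. Planned counts for gene families such as cuticle proteins, digestive enzymes or cyclins, and markers of tissues, needed gene names and were not made. Overlapping genes and near-identical copies could not be told apart without an annotation.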

Additional observations from a re-analysis of the deposited data

How the results depend on the processing

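Of 311 values of counts, medians and shares recomputed under the alternatives, 263 stayed within the tolerance, which for a count of genes is 1.5 times the count reported and for a median or share 1 SD between libraries. Within it, genes higher in eggs still went from 3122 to 4234 with library size alone, and genes higher in larvae from 3651 to 2770 with egg and larval libraries alone. Library size alone gave 855 genes at least 8-fold higher in eggs, a median of -2.10 for genes higher in eggs, and shares of 56.5% for larval genes in larvae and 62.1% for egg genes in eggs. With larva replicate 1 left out as well (an alternative added after the data were seen), 1539 and 906 genes were at least 8-fold higher in larvae and eggs, 179 and 224 had no count in the other stage, the egg median was -2.10, the shares were 55.7% and 60.8%, and 20 and 25 genes of the male list were higher in larvae and eggs. DESeq2's size factors gave an egg median of -1.78 and an egg share of 39.7%, and its Wald test -1.78 and 39.8%. With egg and larval libraries alone, where the filter left 10194 genes, 126 and 37 genes had no count in the other stage, the egg median was -1.84, the egg share 41.4%, and the calls were 69 and 38 for the pupal list and 13 and 3 for the male list. A minimum fold of 4 called 4379 genes, 1402 of them higher in eggs. The ratio of the authors' mean TPM gave an egg median of -2.59. At a minimum of 0.5 CPM, 9170 genes were on in eggs, and at 5 CPM 7355 were on in eggs and 8107 in larvae.

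No pairing by replicate number was seen: same-numbered egg and larval libraries had correlations of deviations from -0.09 to 0.08. Not every library correlated best with its own number. With so few libraries, these correlations cannot show that the samples were unpaired. A replicate block gave 202 larval genes with no count in eggs and 27 male-list genes higher in larvae, and it ended the calls of the lost gene given as an example and of 3 genes that turned without larva replicate 1.

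Leaving out 1 library at a time gave 6100 to 6834 genes called, 1766 to 2454 larval and 495 to 608 egg genes at least 8-fold higher, 185 to 441 and 70 to 198 genes with no count in the other stage, medians of 3.59 to 4.41 and -1.94 to -1.83, and shares of 61.3% to 64.2% and 44.4% to 50.1%. On the lists it gave 25 to 63 and 6 to 16 male genes, 3 to 8 female genes higher in larvae. The 4 genes named by identifier kept their calls in every alternative run. Values turned for 3 abundant genes that were not called, at -0.43, -0.077 and -0.25 with library size alone, and -0.38, -0.067 and -0.19 with larva replicate 1 also left out. The first ranged from -0.12 to 0.32 when 1 library was left out. The lost gene given as an example (-1.08 to 6.14) and 3 genes that turned (-5.11 to 8.94, -1.92 to 7.71 and -4.65 to 7.996) had fitted values of -1.39, -5.24, -2.30 and -4.77 with library size alone and larva replicate 1 left out. The causes were not tested. Depth limits the counts of genes with no reads in a stage, many of which were low in the other stage.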
